A study of Mus musculus with 12 samples.

Results

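Wnt3a alone was compared with its vehicle in C57MG, a mouse mammary epithelial cell line, on 1-colour microarrays. The 3 arrays of cells given recombinant mouse Wnt3a and the 3 arrays of cells given bovine serum albumin (BSA) were taken, 6 of the 12 arrays of the study. The remaining arrays carried RNA from cells given recombinant human Rspo2 (3 arrays) or Rspo2 plus Wnt3a (3 arrays), and all 12 shared one estimate of the spread. Wnt3a was used at 100 ng/ml and Rspo2 at 100 ng/ml, and BSA served as vehicle without either protein. Every monolayer had been grown with serum and insulin in 6-well plates, was moved to plain DMEM without serum, and was harvested after 24 h. The design therefore holds 1 cell line, 1 dose and 1 time point, and p-values rest on the spread between monolayers of that line within a group. BSA and Wnt3a arrays lay on different slides, a difference that this spread does not fully measure.

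Wnt3a is a secreted, lipid-modified ligand that binds a Frizzled receptor together with the co-receptor Lrp5 or Lrp6. Binding stops the Axin and APC destruction complex from marking β-catenin for degradation, so that β-catenin builds up, enters the nucleus and activates genes together with Tcf and Lef factors. In the mammary gland the pathway acts mainly in basal cells, and C57MG cells are long known to change shape and growth in response to Wnt proteins.

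An array held 41174 different probes, and many genes had more than 1. Between 53.2% and 64.15% of the probes were well above background on a BSA array, and between 54.05% and 55.18% on a Wnt3a array. A level is given here as log2 of the background-subtracted intensity minus log2 of the 75th percentile intensity of the array, so that 0 is the 75th percentile. Arrays of one group correlated at 0.9888 to 0.9959 over the probes tested, and arrays of different groups at 0.9841 to 0.9886. The 12 arrays lay on 3 slides. The 3 BSA arrays shared slide 1 with 1 Rspo2 array, Wnt3a arrays 1 and 2 lay on slide 2 with 2 Rspo2 arrays, and Wnt3a array 3 lay on slide 3 with the 3 arrays of both proteins. No slide held BSA beside Wnt3a, so within a slide the treatment cannot be compared, and a slide term could be fitted only through the Rspo2 arrays.

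The label of mammary epithelial cells was set against marker genes. Basal and myoepithelial markers were present in part, with 7 of 12 well above background on all 3 BSA arrays, namely Krt5, Krt14, Krt17, Trp63, Acta2, Mylk and Itga6, and the same number on all 3 Wnt3a arrays. Oxtr, Myh11, Cnn1, Cdh3 and Lgr5 were not. Of 14 luminal markers, 4 passed on every array of both groups (Krt8, Esr1, Prlr and Gata3), while Krt18, Krt19, Epcam, Cdh1, Pgr, Elf5, Foxa1, Csn2, Wap and Muc1 were not, and 6 of the 14 were above background on none of the 6 arrays. Cdh1, the adhesion molecule that defines epithelium, was above background on none, and Epcam on 1 BSA array. Krt8 was dim and not called, at a log2 level of -3.51 ± 0.08 (SD, n = 3) with BSA and -4.20 ± 0.21 (SD, n = 3) with Wnt3a. Krt14, a basal keratin, was bright, at 3.35 ± 0.04 (SD, n = 3) with BSA and 4.01 ± 0.09 (SD, n = 3) with Wnt3a.

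Fibroblast markers were present as well, with 8 of 12 above background on all arrays of both groups (Pdgfra, Pdgfrb, Col1a1, Col1a2, Col3a1, Dcn, S100a4 and Vim), while Thy1, Lum, Fap and Pdpn were above background on none of the 6. Of 13 leukocyte markers 6 passed on all arrays (Csf1r, Cd68, Cd14, Lyz2, Fcer1g and Cd3e), whereas Ptprc and Adgre1, which define leukocytes and macrophages, were above background on none, and Itgam, Tyrobp, Laptm5, Aif1 and Cd79a were not in every array. Of 9 endothelial markers 2 passed (Cdh5 and Eng), and Pecam1, Kdr, Tek, Tie1, Vwf, Emcn and Cldn5 did not. Of 7 adipocyte markers on the array Fabp4 passed, and Adipoq, Plin1, Cidec, Lep, Retn and Cfd did not. The summed signal of the fibroblast list, relative to the 75th percentile, was 543, 535 and 522 in the BSA arrays and 573, 636 and 640 in the Wnt3a arrays, most of it from S100a4 (0.36, and -0.02 with quantile normalization). The median change of the 8 fibroblast markers tested was -0.30 (-0.39 with quantile normalization), with 5 of 8 negative. The summed signal of the basal list was 144, 138 and 146 with BSA and 194, 190 and 211 with Wnt3a, most of it from Acta2. The luminal sums were 4.04, 3.28 and 3.15 against 4.55, 5.17 and 3.94, with Gata3 the brightest. Leukocyte sums overlapped, at 7.65, 8.42 and 7.78 against 7.19, 7.69 and 7.78, with Cd14 the brightest. The endothelial sums were lower with Wnt3a, at 3.02, 3.20 and 3.0 against 2.37, 2.31 and 2.63, with Cdh5 the brightest, and the adipocyte sums were 0.623, 0.529 and 0.528 against 0.520, 0.566 and 0.593. By the brightest probe 1 of all these markers passed the test, Cd3e, a dim probe whose change of -1.01 ± 0.33 (log2, ± SE, adjusted p = 0.04) was lost on leaving out any 1 of BSA arrays 1, 2 or 3 or Wnt3a arrays 1 or 2 (-0.91 to -1.10). Pdgfra, a fibroblast receptor, was at -0.81 (adjusted p = 0.00088) and Krt14 at 0.66 (adjusted p = 0.0013), both short of 2-fold, and a second, dimmer Pdgfra probe was called lower (-1.12, adjusted p = 0.0018). What part such shifts have in the results was not tested, and in bulk RNA fewer cells of a type and less RNA per cell cannot be told apart.

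With 75th percentile scaling and a 2-fold limit more probes were called lower than higher with Wnt3a, a balance that other scalings turned. Among probes above background on all 6 arrays, and outside the genes that the study had already tabulated, the largest rises were in Rmrp, Fam167a and Prr32 and the largest falls on probes of Oas2, Slirp and Cntn1, each above 3-fold. The brightest Slirp probe was higher with Wnt3a, not lower (0.64 on the log2 scale). Interferon-response, chemokine, acute phase and complement genes supplied most of the falls among the fixed gene lists, whereas rises among Wnt targets were few and close to 2-fold. A probe was called where limma gave a Benjamini-Hochberg adjusted p below 0.05 and the change was at least 2-fold. Of 22750 probes tested, 573 were called, or 2.52%, with 92 higher (0.404%) and 481 lower (2.11%) in Wnt3a-treated cells. Among the 20975 probes that stood well above background in each of the 6 arrays, 312 were called (1.49%), 49 higher (0.234%) and 263 lower (1.25%). Counting each gene by its brightest probe, 212 of 12578 genes were called (1.69%), 66 higher (0.525%) and 146 lower (1.16%), whereas at the adjusted p without the 2-fold limit 2952 genes were higher and 1188 lower. Among the 11784 genes above background on all 6 arrays, 119 were called (1.01%), 36 higher (0.305%) and 83 lower (0.704%). The 3 Wnt3a arrays lay entirely above or below the 3 BSA arrays for 10358 probes, 45.5% of those tested, and for 561 of the 573 called.

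The balance of directions depended on the scaling. With the 75th percentile, 83.9% of the called probes were lower (95% Clopper-Pearson interval 80.7% to 86.9%, counting error only). That interval takes probes as independent, although a gene can have several and all were read on the same 6 arrays. It does not cover the spread between monolayers, slides or scalings. Quantile normalization called 411 probes, of which 211 were higher and 200 lower (48.7% lower), and median scaling called 384 higher and 184 lower (32.4% lower), after moving the median of all probes by 0.33. The change also ran with brightness. In the dimmest of 8 equal groups of probes, of median intensity 39.9, the median change was -0.32, and it was 0.01 in the fifth group and 0.32 in the brightest group, of median intensity 14300. With quantile normalization the same medians were 0.06 and 0.03 in the dimmest and brightest groups. The dimmest group held 271 of the lower calls and 38 of the higher ones. With the slide as a term, 146 probes were called, 36 higher and 110 lower, and the trend remained at -0.30 to 0.17. A total of 76 probes were called under all 3 treatments of the data, 22 higher and 54 lower, and 55 of them were above background on all 6 arrays.

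**Figure D1:**
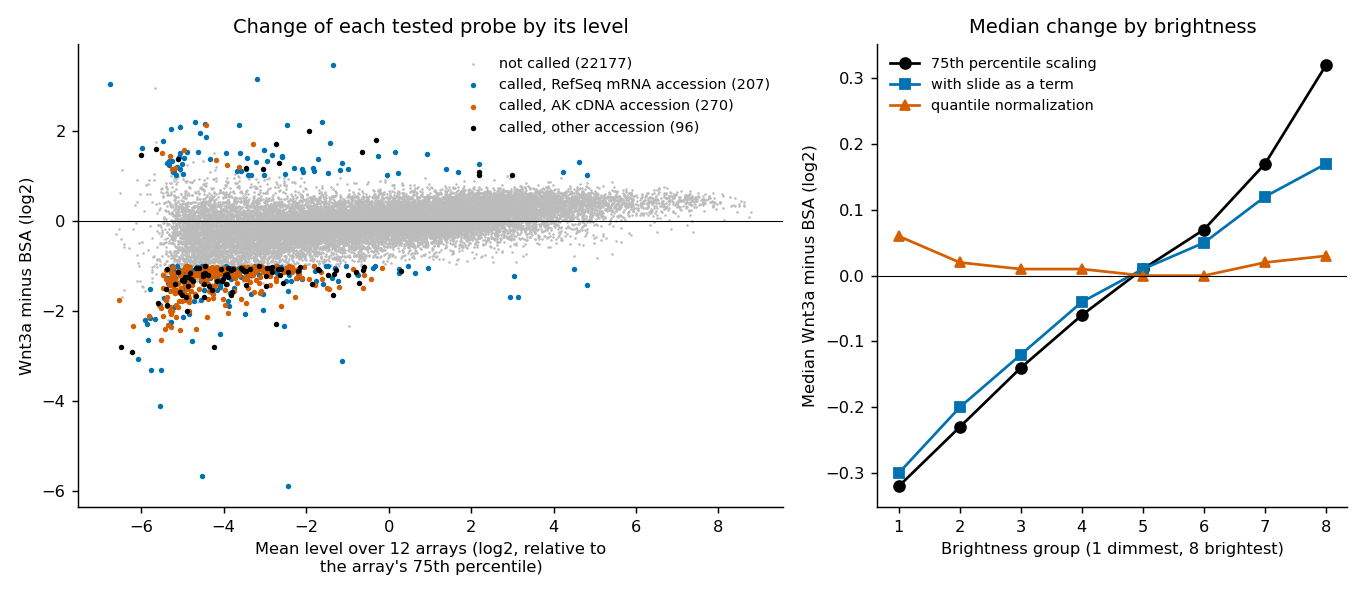
Left, the change of each tested probe (Wnt3a minus BSA, log2) against its mean log2 level over 12 arrays relative to the array's 75th percentile, with called probes coloured by the kind of accession they were designed for. Right, the median change in 8 groups of probes ordered by brightness, which runs from -0.32 to 0.32 with 75th percentile scaling, from -0.30 to 0.17 with the slide as a term, and stays within 0.06 of 0 with quantile normalization.

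The genes of the next paragraphs were chosen among called, untabulated probes above background on all 6 arrays whose groups did not overlap, so that separation is no finding. Of the 81 genes named by rule that were called, in these paragraphs and in the gene lists, 67 lost the call with normexp background correction, and Gadd45g, Slurp1, Cntn1, Tlr2, Ccl7, Cxcl5, Il33, Lcn2, Hp, C3, Ltbp2, Klf5, Ahr and Mgp kept it. With the slide term 54 lost it, and besides the genes described as keeping it, Nfe2l2, E030011O05Rik, Slirp, 3021401N23Rik, A530020G20Rik, Fubp1 and Rnpc3 did. Among the rises, Fam167a moved from log2 levels of -2.69, -2.66 and -2.43 in the BSA arrays to -0.73, -0.82 and -1.02 in the Wnt3a arrays. The change of 1.74 ± 0.10 (3.33-fold, adjusted p = 8.3e-06) was also called with quantile normalization (1.89) and with the slide term (1.78), and not with normexp (1.11). Gadd45g, a stress-inducible regulator of MAP kinase signalling and growth arrest, was a bright transcript at 3.57, 3.66 and 3.54 with BSA and 4.78, 4.94 and 4.95 with Wnt3a. Its change of 1.30 ± 0.09 (2.46-fold, adjusted p = 2.6e-05) was called under all 24 alternatives. Car6, a secreted carbonic anhydrase, stood at -4.12, -4.37 and -4.38 with BSA and -2.85, -2.66 and -3.16 with Wnt3a, a rise of 1.40 ± 0.12 (2.63-fold, adjusted p = 9.3e-05) that was 1.46 and called with the slide term, but 0.41 and not called with normexp (adjusted p = 0.80).

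Rmrp, the RNA subunit of the ribonuclease that processes ribosomal RNA precursors, had the largest rise of these. It stood at -2.93, -3.63 and -3.62 with BSA and at -1.47, -1.33 and -1.41 with Wnt3a, and BSA array 1 was the closest of its group to the Wnt3a arrays. The change of 1.99 ± 0.17 (3.98-fold, adjusted p = 5.6e-05) was 1.76 with the slide term and no longer called (adjusted p = 0.052). With normexp it was 1.17 and not called either (adjusted p = 0.17). Slurp1, a secreted Ly6 family protein of stratified epithelia, moved from 1.22, 1.30 and 1.27 to 2.46, 2.56 and 2.55. The arrays of each group nearly coincided, and the rise was 1.26 ± 0.13 (2.40-fold, adjusted p = 0.00022), with 0.88 under the slide term. Crybb1, a lens crystallin gene, rose by 1.47 on one probe and 1.42 on another. Rcan2, a regulator of calcineurin, rose by 1.18 and C5ar2, a receptor for the complement fragment C5a, by 1.33, the latter with Wnt3a array 1 at -1.91 apart from -2.98 and -2.80. Prr32 (1.71), Tcstv1 (1.17), LOC625240 (1.29) and LOC238395 (1.18) completed these rises. None of these 4 was called with the slide term, where the values were 0.91, 1.05, 1.63 and 0.52, nor were Crybb1 (1.29 on the first probe), Rcan2 (0.86) and C5ar2 (1.37), so that the change of some was no smaller there. The call also ended on leaving out Wnt3a array 1 for LOC625240 (0.92) and Tcstv1 (0.99), or BSA array 3 for Tcstv1 (1.01). For Nfe2l2, which encodes the oxidative stress factor Nrf2, a rise of 1.70 came from a probe for a cDNA, while the gene's brightest probe gave 0.23. E030011O05Rik rose by 1.37 on one probe and stood at -0.03 on its brightest.

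Among the falls chosen in this way, Oas2 was the largest. It encodes an oligoadenylate synthetase, an interferon-induced enzyme that responds to viral RNA by making the activator of RNase L. Oas2 stood at -0.73, -0.73 and -0.84 with BSA and at -3.06, -3.04 and -3.21 with Wnt3a. The spread within each group was small beside the change of -2.34 ± 0.15 (5.05-fold lower, adjusted p = 1.4e-05), which was -2.21 with quantile normalization and -1.91 with the slide term, called in both, and -1.78 with normexp, not called. Mx2, an interferon-induced dynamin-like GTPase, stood at -1.21, -1.61 and -1.64 with BSA and at -3.45, -3.35 and -3.61 with Wnt3a. The change of -1.98 ± 0.32 (3.96-fold lower, adjusted p = 0.0018) kept its size with the slide term (-1.81) without being called there. Cntn1, an immunoglobulin family adhesion protein of neurons, fell on 2 probes. Its brightest probe moved from -0.70, -0.92 and -0.83 to -2.62, -2.57 and -2.89, a change of -1.88 ± 0.11 (3.68-fold lower, adjusted p = 8.3e-06) that the slide term kept (-1.81). The other probe gave -2.06, and -1.92 with the slide term, where it was not called (adjusted p = 0.055). Wdr38, a WD repeat gene, moved from -2.40, -2.49 and -2.57 to -4.54, -4.16 and -4.42, a change of -1.89 that the slide term also kept (-2.08).

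The remaining 11 of these falls included more interferon-linked genes. Parp14, an ADP-ribosyltransferase, fell by 1.78 on one probe and by 1.06 on its brightest, both called. Oas1b, a synthetase without enzyme activity that is tied to flavivirus resistance in mice, moved from -2.92, -2.82 and -2.79 to -4.15, -4.74 and -4.45. The change was -1.60 ± 0.22 (adjusted p = 0.001), but it was -0.78 with the slide term and not called. Other falls came from probes whose gene had a brighter probe that was not called. Slirp, a mitochondrial RNA-binding protein, gave -2.28 on one probe, while its brightest was higher, at 0.64 (adjusted p = 0.0046). Rnpc3, a protein of the minor spliceosome, gave -1.62 and on its brightest 0.21 (adjusted p = 0.043). Ssb, the La RNA chaperone, gave -1.73 and on its brightest -0.47 (adjusted p = 0.18). Fubp1, a single-stranded DNA-binding regulator of Myc, gave -1.62 and on its brightest -0.17 (adjusted p = 0.46). A530020G20Rik fell by 1.72, and its brightest probe gave -1.42. A430085C19 (-2.05), 3021401N23Rik (-1.87), LOC673433 (-1.64) and the lipase gene Lipn (-1.57) were the others. LOC673433 had the widest BSA spread, at 0.77, -0.63 and -0.98.

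**Figure D2:**
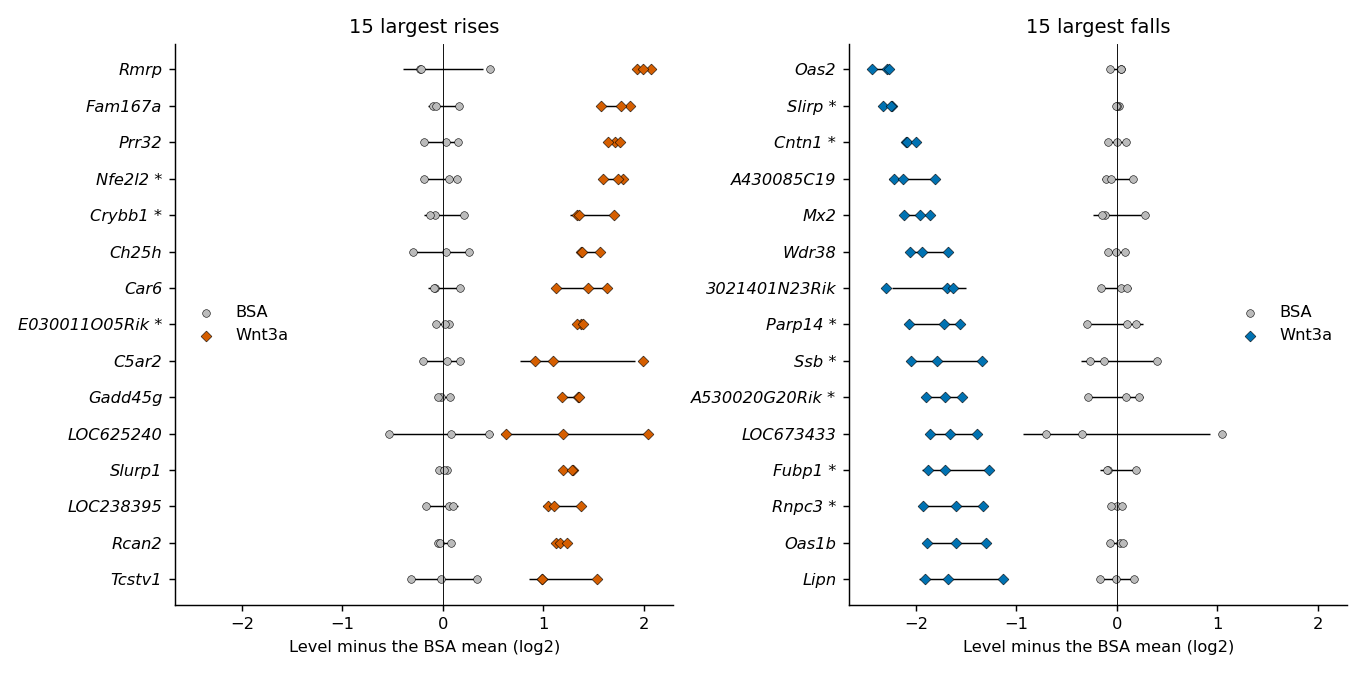
The 15 largest rises (left) and 15 largest falls (right) among called, named probes above background on all 6 arrays, tabulated genes left out, each array drawn as its log2 level minus the BSA mean, with lines for the mean ± SD of 3 arrays. Grey circles are BSA and coloured diamonds Wnt3a, an asterisk marks a probe that is not the gene's brightest, and the widest spreads are those of LOC625240 with Wnt3a (SD 0.71) and LOC673433 with BSA (SD 0.93).

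Wnt feedback and direct target genes, a list of 53, had 38 members tested. Of these 4 were called higher and 1 lower, against 0.525% and 1.16% of all genes, and the median change was 0.20 beside 0.07 for all genes. At the adjusted p without the 2-fold requirement 16 were higher and 2 lower, where 23.5% of all genes were higher and 9.45% lower. The list's median over the BSA mean was 0.26, 0.23 and 0.35 in Wnt3a arrays 1, 2 and 3, and it was 0.20 with quantile normalization and 0.21 with the slide term. Tcf7, which encodes the β-catenin partner Tcf1, stood at -2.39, -2.56 and -2.25 with BSA and -1.17, -1.27 and -1.55 with Wnt3a. Its rise of 1.07 ± 0.12 (2.10-fold, adjusted p = 0.00037) was also called with quantile normalization (1.22) and the slide term (1.20), and dropped to 0.99 without BSA array 2 or without Wnt3a array 1. A second Tcf7 probe gave 0.96.

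The other called targets were Rhou, a Wnt-induced small GTPase (1.15 ± 0.14, adjusted p = 0.00048), Edn1, the endothelin peptide (1.12 ± 0.09, adjusted p = 5.3e-05), and Ccnd1, cyclin D1 (1.08 ± 0.16, adjusted p = 0.0012). The slide term kept the call for Rhou (1.32), not for Edn1 (0.96) or Ccnd1 (0.81), and Ccnd1 was at 0.98 without Wnt3a array 3 and at 0.82, not called, with quantile normalization. The member called lower was Ppard, a lipid-sensing nuclear receptor, which was above background on 1 BSA array and no Wnt3a array, so that the size of its change was not measured. Its intensities were 41.2, 35.6 and 31.5 with BSA and 14.5, 7.85 and 20.6 with Wnt3a. Its call was lost without BSA array 1 (-0.90), Wnt3a array 1 (-1.08) or Wnt3a array 2 (-0.74), and with quantile normalization. Axin2, the feedback scaffold most used to read this pathway, was not well above background on any of the 6 arrays, nor were Lef1 and Nkd1, so none of the 3 has a measured change here. Bmp4, a secreted growth factor, stood at 1.34, 1.51 and 1.41 with BSA and 2.02, 2.0 and 2.30 with Wnt3a, a difference of 0.69 ± 0.11 (adjusted p = 0.0021) that stayed under 2-fold. Znrf3, the ubiquitin ligase that removes Wnt receptors and that R-spondins block, was at 0.79 (adjusted p = 0.012), under 2-fold. Myc was at 0.21 ± 0.07 (adjusted p = 0.054).

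Calls among genes of the pathway's machinery are to be read beside 0.525% of all genes called higher and 1.16% called lower. Of 34 genes of the β-catenin complex and its nuclear effectors Tcf7 was the 1 call by the brightest probe, and the median was 0.05. Ctnnb1, β-catenin itself, was at -0.33 ± 0.11 (adjusted p = 0.04), short of 2-fold. None of 16 receptors and co-receptors was called by its brightest probe (median -0.14), with Fzd7 at 0.01 and Lrp6 at -0.10. None of 7 secreted Wnt inhibitors (median 0.16) or 9 Wnt ligands (median 0.14) was called.

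Interferon-stimulated effector genes, which block viral replication at many steps, held the most lower calls of any list. Of 58 tested, 12 were called lower and 0 higher, where 1.16% of all genes were called lower and 0.525% higher, and the median change was -0.45. At the adjusted p alone 35 were lower and 1 higher, where 9.45% of all genes were lower and 23.5% higher. The list's median was -0.42, -0.42 and -0.49 in the 3 Wnt3a arrays, -0.39 with quantile normalization, which called 6 lower, and -0.45 with the slide term, which called 4 lower. Uba7, the activating enzyme for the ubiquitin-like protein Isg15, stood at -1.38, -1.39 and -1.43 with BSA and -2.56, -2.72 and -2.92 with Wnt3a. The BSA arrays nearly coincided, and the change was -1.34 ± 0.15 (2.53-fold lower, adjusted p = 0.00036), -1.05 and not called with the slide term. Ifi44 moved from -0.66, -1.19 and -1.15 to -2.25, -2.16 and -2.50 (-1.30 ± 0.22, adjusted p = 0.0021). Slfn8, a schlafen family protein, moved from -2.48, -2.82 and -2.72 to -3.90, -3.99 and -3.86. Its groups were more than 1 log2 unit apart, the change was -1.24 ± 0.10 (adjusted p = 4.7e-05), and the slide term gave -1.35, called, while quantile normalization gave -0.99. Mx1 was called lower (adjusted p = 0.023) but was above background on 1 Wnt3a array, so its fitted -1.91 rests partly on signals not above background. It was -0.73 with normexp and -1.57 with the slide term, called in neither, and lost its call without BSA array 1 (-1.61) or Wnt3a array 2 (-1.63). Gbp6, a guanylate-binding GTPase above background on no Wnt3a array, was lower by at least 1.98-fold (adjusted p = 0.0045), and was not called with quantile normalization (-0.86) or the slide term (-1.49). That bound sets the mean of the group that was above background on all 3 arrays against, on each array of the other group, the higher of the probe's own signal and the lowest signal among probes above background there, and the bounds given later were made the same way. Other members stood near 0, with Isg15 at -0.01, Bst2 at 0.11 and Ifit2 at 0.15.

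All 9 OAS and RNase L genes tested had a negative change, from -2.34 to -0.13, where 5297 of all 12578 genes had one. Of the 9, Oas2 and Oas1b were called lower, beside 1.16% of all genes. The median was -0.30, -0.21 with quantile normalization and -0.58 with the slide term. The list was dim, with a median intensity of 159 beside 1380 for all genes. In groups 2 and 3 of the probes ordered by brightness, of median intensity 97.4 and 234, the median change was -0.23 and -0.14. What part of the list's shift goes with brightness was not tested. Oasl2 was at -0.91, Oas3 at -0.30 and Oas1a at -0.19. These genes are close paralogs, so probes can share targets.

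Among 23 interferon regulatory factors, STATs and receptors 3 were called lower and 0 higher, beside 1.16% and 0.525% of all genes (median -0.19). They are the parts of one transcription pathway. Irf7, which amplifies type I interferon production, moved from -1.54, -1.58 and -1.62 to -3.07, -2.96 and -2.74, a change of -1.34 ± 0.15 (adjusted p = 0.0003). Stat2 stood at -1.57, -1.32 and -1.24 with BSA and -2.24, -2.46 and -2.75 with Wnt3a (-1.11 ± 0.13, adjusted p = 0.00047). Irf9 stood at -0.26, -0.27 and -0.23 with BSA and -1.09, -1.32 and -1.35 with Wnt3a (-1.0 ± 0.08, adjusted p = 4.7e-05). Stat2 and Irf9 are parts of a complex that binds the interferon-stimulated response element (ISRE), and both sat near the 2-fold limit. Irf9 lost its call without BSA array 3 (-0.99), Wnt3a array 2 (-0.97) or Wnt3a array 3 (-0.95), and Stat2 without Wnt3a array 3 (-0.97). A second Irf9 probe gave -1.34 (adjusted p = 0.0002). Neither Stat2 (-0.97) nor the first Irf9 probe (-0.95) was called with quantile normalization, and none of the 3 was called with the slide term, where the values were -1.41 for Irf7, -0.96 for Stat2 and -0.98 for Irf9. Of 23 MHC class I and antigen processing genes, also under interferon control, none was called by its brightest probe and the median was 0.01. That median was -0.23 with quantile normalization and -0.14 with the slide term.

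Promoter sequence was compared across these genes because an ISRE would be a shared feature that the array did not measure. RefSeq windows of 300 bases (250 before and 50 after the start, build GRCm38.p6) were searched on both strands for the ISRE-like GAAANNGAA. It was found in 9.76% of 27025 genes with a promoter, in 8.48% of 9627 tested genes, in 10.2% of 49 genes called higher and in 18.7% of 75 genes called lower. It was found in 58.9% of 56 interferon-stimulated effectors, a property of that list whether or not its members moved, in 57.1% of 7 OAS and RNase L genes and in 16.0% of 25 regulatory factors. Of the 17 genes called lower in the 3 interferon lists, 9 had a promoter and 6 of these held it. Stretches of 150 bases before the start of 4 of them are printed here from 5′ to 3′ on the gene's strand, with the ISRE-like match in capitals, to show where the element lay. Irgm2, Rsad2 and Slfn9, with changes of -1.05, -1.12 and -1.08, were chosen for printing after their values were seen.

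Irgm2 chr11:58214827-58214976 (+ strand): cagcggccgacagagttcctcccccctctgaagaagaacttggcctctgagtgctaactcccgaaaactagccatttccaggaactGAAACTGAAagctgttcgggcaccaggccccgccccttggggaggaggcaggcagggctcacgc
Rsad2 chr12:26456453-26456602 (- strand): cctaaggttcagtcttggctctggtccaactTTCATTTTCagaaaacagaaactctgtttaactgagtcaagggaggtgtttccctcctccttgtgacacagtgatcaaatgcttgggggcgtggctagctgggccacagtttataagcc
Slfn8 chr11:83020811-83020960 (- strand): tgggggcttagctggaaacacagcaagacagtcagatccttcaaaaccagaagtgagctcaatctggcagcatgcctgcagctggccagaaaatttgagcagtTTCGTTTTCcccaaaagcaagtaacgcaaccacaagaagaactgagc
Slfn9 chr11:82991831-82991980 (- strand): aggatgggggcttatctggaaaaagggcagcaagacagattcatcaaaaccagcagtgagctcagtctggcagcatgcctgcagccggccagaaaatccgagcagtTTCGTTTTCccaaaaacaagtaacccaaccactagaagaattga

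The match began 64 bases before the start in Irgm2, 119 in Rsad2, 47 in Slfn8 and 44 in Slfn9, where the Slfn8 and Slfn9 stretches are alike and carry the same 9 letters. In Ifi44 a match began 3 bases before the start and in Stat2 at position -221 from it, outside a 150-base stretch. The windows of Irf7, Irf9 and Uba7 held none. The Tcf/Lef-like ATCAAAG was found in 4.29% of all promoters and 3.16% of those of tested genes, in 3 of 38 Wnt targets (7.89%) and in 4.08% of the genes called higher, and in none of the windows of Edn1, Rhou and Tcf7. A GAS-like TTCNNNGAA occurred in 9.55% of all promoters, 8.17% of those of tested genes and 4.0% of those of genes called lower. The E-box CACGTG occurred in 8.09%, 11.7% and 8.0%, and in 12.2% of those of genes called higher.

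Among pattern sensors, chemokines and acute phase genes, every call was lower. Tlr2, the receptor for bacterial lipoproteins, stood at 1.63, 1.46 and 1.45 with BSA and at 0.34, 0.40 and 0.31 with Wnt3a. The groups were tight, and the change of -1.16 ± 0.08 (2.24-fold lower, adjusted p = 2.2e-05) was kept with quantile normalization (-1.24) and the slide term (-1.10). Nod2, a cytosolic sensor of bacterial cell wall fragments, moved from 0.40, 0.47 and 0.38 to -0.55, -0.63 and -0.70 (-1.05 ± 0.09, adjusted p = 5.3e-05), with -0.83 under the slide term. Tlr7, a sensor of single-stranded RNA, completed the 3 lower calls among 24 sensors, beside 1.16% of all genes. It was above background on 2 Wnt3a arrays and at -1.09, was not called with quantile normalization (-0.74) or the slide term (-0.64), and lost its call without BSA array 1 (-0.90), BSA array 3 (-1.01) or Wnt3a array 3 (-0.97). The list's median was -0.18.

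Chemokines had the lowest median of all 44 lists, -0.73, with -0.86 under quantile normalization and -0.75 with the slide term. Of 15 tested 5 were called lower and 0 higher, beside 1.16% and 0.525% of all genes, and at the adjusted p alone 9 were lower and 2 higher (9.45% and 23.5% of all genes). Cxcl5, which attracts neutrophils, was among the brightest signals at 5.96, 5.97 and 6.01 with BSA and 4.45, 4.72 and 4.50 with Wnt3a. The fall was 1.42 ± 0.08 on the log2 scale (2.68-fold lower, adjusted p = 8.3e-06), and it was called under all 24 alternatives, with -1.75 by quantile normalization and -1.48 by the slide term. Ccl2, the main monocyte chemokine, moved from 5.42, 5.46 and 5.43 to 4.24, 4.38 and 4.47 (-1.07 ± 0.12, adjusted p = 0.00029), and its neighbour in function Ccl7 by -1.70 ± 0.14 (adjusted p = 5.6e-05). Both were called with quantile normalization (-1.39 and -1.97) and the slide term (-1.40 and -2.10), and neither group of arrays overlapped the other. Ccl8 was at -1.28, called here and not with quantile normalization (-0.99) or the slide term (-2.18, larger in size). Ccl20, above background on no Wnt3a array, was lower by at least 2.10-fold. It was not called with the slide term. Its fitted changes of -2.15 here and -3.19 there rest partly on signals not above background, so their sizes cannot be compared. Ccl5 and Cxcl10, at -0.80 and -0.79, did not reach 2-fold.

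Acute phase and complement genes held the largest falls of the comparison. Of 24 tested 5 were called lower and 0 higher, beside 1.16% and 0.525% of all genes, with a median of -0.47, and all 5 were called with quantile normalization and with the slide term. Lcn2, lipocalin 2, which withholds iron from bacteria, stood at 1.78, 2.03 and 2.0 with BSA and at -4.01, -4.03 and -3.81 with Wnt3a, a change of -5.89 ± 0.13 (59.3-fold lower, adjusted p = 2.7e-09). With normexp background correction the Lcn2 change was smaller, at -4.58, and still called. C3, the central complement component, moved from 1.27, 1.13 and 1.19 to -1.72, -1.93 and -2.08 (-3.11 ± 0.16, adjusted p = 3.9e-06). For both genes every BSA array stood far above every Wnt3a array. Hp, haptoglobin, and Saa3, serum amyloid A3, were above background on no Wnt3a array and were lower by at least 20.6-fold and 6.12-fold. Serping1, the C1 inhibitor, which the study did not tabulate, stood at -3.19, -3.22 and -3.16 with BSA and -4.53, -4.53 and -4.43 with Wnt3a. The change was -1.31 ± 0.12 (2.48-fold lower, adjusted p = 0.0001), with -1.69 under the slide term. The list's median was -0.50 with quantile normalization and -0.69 with the slide term.

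Upstream of these genes few reached the 2-fold limit. None of 22 NF-κB subunits and feedback genes was called by its brightest probe (median -0.16). At the adjusted p alone 9 of them were lower and 2 higher, where 9.45% of all genes were lower and 23.5% higher. Other probes of Nfkb1, the p105 and p50 subunit, and Vcam1, an adhesion receptor for leukocytes, were called lower (-1.12 and -3.07), where the brightest gave -0.75 and -0.04, and that Vcam1 probe was not above background on all 6 arrays. Nfkbia, the inhibitor and feedback target of NF-κB, was at -0.43 ± 0.12 (adjusted p = 0.02). Among 21 interleukin 6 and interleukin 1 family genes Il33, an alarmin cytokine, was called, and it rose from -4.19, -3.96 and -4.02 to -0.62, -0.48 and -0.70. That change of 3.46 ± 0.09 (11.0-fold, adjusted p = 7.5e-09) ran against the falls around it and was called under all 24 alternatives. With normexp background correction it was smaller, at 2.19. Il6 was at -0.66 ± 0.09 (adjusted p = 0.001), under 2-fold. Of 22 glucocorticoid response genes, which overlap the acute phase list, 2 were called lower, beside 1.16% of all genes, Lcn2 and Angptl4, an inhibitor of lipoprotein lipase (at least 3.16-fold, and -2.30 on the log2 scale without a call with the slide term), and Tsc22d3, a direct glucocorticoid target, was at 0.22 (adjusted p = 0.097).

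**Figure D3:**
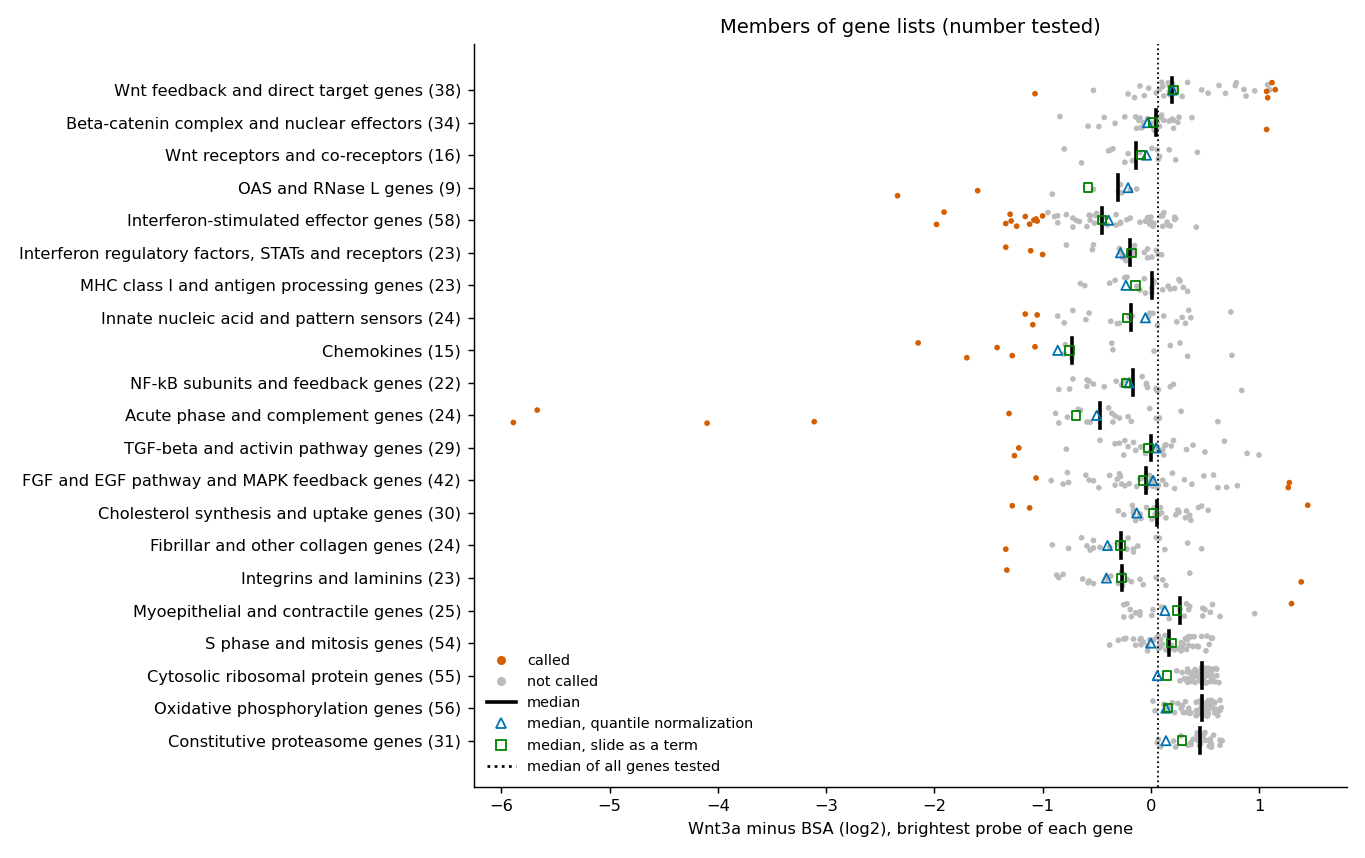
Change of each member of 21 gene lists (Wnt3a minus BSA, log2, brightest probe), with called members in orange and the number tested in brackets. Bars are list medians, triangles and squares the medians with quantile normalization and with the slide as a term, and the dotted line the median of all genes (0.07), so that chemokines (-0.73), acute phase genes (-0.47) and interferon-stimulated effectors (-0.45) lie left of it and ribosomal, respiratory and proteasome genes (0.45 to 0.47) right of it, the latter at 0.06 to 0.14 with quantile normalization.

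Growth factor lists held few calls, which are to be read beside the 0.525% of all genes called higher and 1.16% called lower. Spry1, a feedback inhibitor of receptor tyrosine kinases, stood at -2.08, -1.99 and -2.39 with BSA and -0.94, -0.81 and -0.87 with Wnt3a, and its rise of 1.28 ± 0.10 (2.43-fold, adjusted p = 4.7e-05) was kept with quantile normalization (1.42) and the slide term (1.36). Of 42 FGF, EGF and MAPK feedback genes Spry1 and the metabolic hormone Fgf21 were called higher, and Fgf7, the keratinocyte growth factor, was lower (-1.06 ± 0.35, adjusted p = 0.039). Fgf7 was not called with quantile normalization (-0.75), and lost its call without BSA array 1 (-0.84), BSA array 3 (-1.11) or any 1 of the 3 Wnt3a arrays (-0.92 to -1.14). Of 13 insulin-like growth factor genes, Igf1 (1.03 ± 0.19, adjusted p = 0.003) and its binding protein Igfbp2 were called higher. Fgf21 and Igfbp2 were above background on all 3 Wnt3a arrays and 1 BSA array, so that their fitted changes of 1.27 and 1.5 rest partly on signals not above background. With normexp background correction they were 0.16 and 0.29 and with the slide term 0.76 and 2.45, the last larger in size, and neither was called in either. Igf1 was at 0.28 with normexp and 0.58 with the slide term, called in neither, and at 0.95 without BSA array 2 or Wnt3a array 2.

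Of 29 TGF-β and activin pathway genes 2 were called lower, beside 1.16% of all genes, and the median was 0.00. Ltbp2, a matrix protein of the latent TGF-β binding family, moved from 4.07, 3.99 and 4.06 to 3.11, 2.73 and 2.63 (-1.22 ± 0.15, adjusted p = 0.00061). Tgfbr3, the co-receptor betaglycan, was at -1.26 ± 0.22 (adjusted p = 0.0023), and without Wnt3a array 2, its lowest at -3.32, at -0.97. None of 20 BMP pathway genes was called. In the Notch list of 13 the transcriptional repressor Helt rose by 1.57 ± 0.15 (adjusted p = 0.00013), while Hes1, the usual Notch target, was at 0.43 ± 0.20 (adjusted p = 0.13).

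Of 30 cholesterol genes 1 was called higher and 2 lower, beside 0.525% and 1.16% of all genes, with a median of 0.06, and none of the 3 was called with the slide term. Ch25h, which converts cholesterol to 25-hydroxycholesterol, stood at -3.64, -3.87 and -4.20 with BSA and -2.52, -2.34 and -2.51 with Wnt3a, a rise of 1.45 ± 0.14 (2.73-fold, adjusted p = 0.00014). The slide term gave 1.22 (adjusted p = 0.086). The efflux transporters Abca1 and Abcg1 were the lower calls. Abca1 stood at -2.58, -2.99 and -3.0 with BSA and -3.82, -4.26 and -4.33 with Wnt3a (-1.28 ± 0.15, adjusted p = 0.00043), with -1.30 under the slide term (adjusted p = 0.088). Abcg1 was at -1.12 ± 0.18 (adjusted p = 0.0017), at -0.95 with the slide term and -0.87 with quantile normalization, and at -0.90 without BSA array 1, which at -2.47 stood above the other BSA arrays at -3.21 and -3.03.

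Other metabolic and nuclear receptor genes gave single calls. Mgll, which breaks down monoacylglycerols, rose by 1.01 ± 0.17 (adjusted p = 0.0021) and was under 2-fold without BSA array 1 (0.98), BSA array 3 (0.99) or Wnt3a array 3 (0.96). Klf5, a zinc finger factor of proliferating epithelium, rose by 1.16 ± 0.12 (adjusted p = 0.00026), and Klf15, above background on no Wnt3a array, was lower by at least 2.01-fold, a call that was lost with quantile normalization (-0.85) and the slide term (-0.83). Ahr, the aryl hydrocarbon receptor, stood at -0.54, -0.85 and -0.93 with BSA and 0.31, 0.38 and 0.20 with Wnt3a. Its rise was 1.07 ± 0.11 (adjusted p = 0.00017), and 1.00 and not called without BSA array 3. Foxred2, an endoplasmic reticulum protein of glycoprotein degradation, moved from -1.56, -1.62 and -1.69 to -2.79, -2.77 and -2.79 (-1.16 ± 0.11, adjusted p = 0.00016), and was -0.81 with the slide term.

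Matrix genes gave few calls, to be read beside 0.525% higher and 1.16% lower of all genes. Of 24 collagen genes 1 was called, Col5a3, a fibrillar collagen, which moved from -0.16, -0.18 and -0.32 to -1.40, -1.59 and -1.67 (-1.34 ± 0.15, adjusted p = 0.00029). The list's median was -0.28, and -0.40 with quantile normalization, and Col1a1, at -0.31 ± 0.10 (adjusted p = 0.038), was near it. Omd, a small leucine-rich proteoglycan (1.11 ± 0.13, adjusted p = 0.00036), and Mgp, matrix Gla protein (1.03 ± 0.09, adjusted p = 0.00011), were higher among 29 other matrix genes, and Comp, cartilage oligomeric matrix protein, was lower (-1.0 ± 0.14, adjusted p = 0.001). Mgp was bright, at 4.01, 4.04 and 4.05 against 4.98, 5.11 and 5.12, and with quantile normalization Mgp (0.74) and Comp (-0.76) were not called. Omd was at 0.96 without Wnt3a array 2, and Comp under 2-fold without BSA array 1 (-0.97), BSA array 2 (-0.94) or Wnt3a array 1 (-0.84). In the integrin and laminin list (median -0.27 over 23) Itga10, above background on 2 Wnt3a arrays, was called lower (-1.33 ± 0.32, adjusted p = 0.01), and not with quantile normalization (-0.96), the slide term (-1.33, adjusted p = 0.38) or normexp (-0.73). Itgbl1 was called higher but was above background on no BSA array and 2 Wnt3a arrays, so that its change was not measured in size, and it was 0.51 and not called with the slide term. Fhl1, a LIM protein of muscle, rose from -4.09, -4.07 and -4.04 to -2.74, -2.61 and -2.96 (1.30 ± 0.12, adjusted p = 9.1e-05), called with the slide term (1.16). With normexp Fhl1 was at 0.52 and not called. Among 25 contractile genes it was the 1 call, with Acta2, smooth muscle actin, at 0.48 ± 0.08 (adjusted p = 0.0026) and at 0.04 with quantile normalization.

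**Figure D4:**
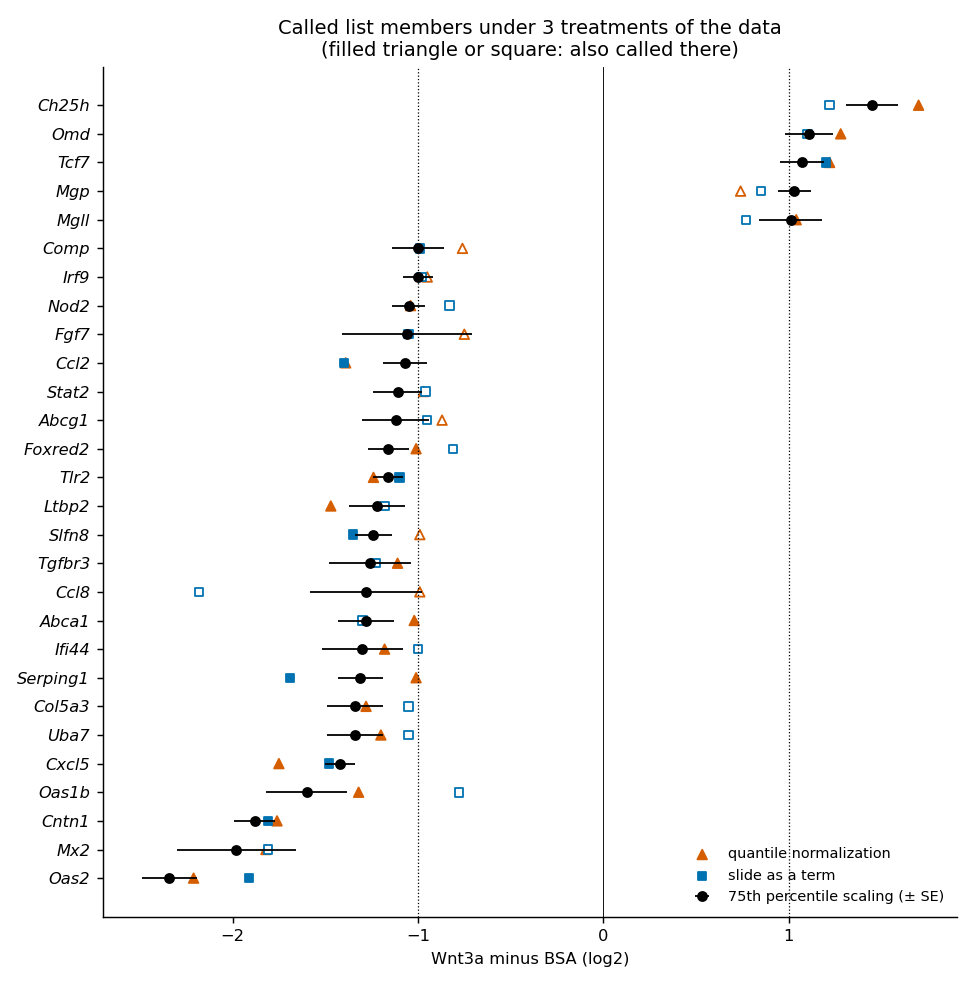
The 28 called members named from the lists (up to 6 in each list and direction, cell type markers aside) that were above background on all 6 arrays and that the study did not tabulate, as change on the log2 axis (Wnt3a minus BSA) with 75th percentile scaling (circles, ± SE), quantile normalization (triangles) and the slide as a term (squares), filled where also called. Dotted lines mark 2-fold, and Oas2, Cntn1, Cxcl5, Serping1, Tlr2, Ccl2 and Tcf7 are filled in both.

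Proliferation genes showed no call besides Ccnd1. By the brightest probe none of 54 S phase and mitosis genes passed, and their median of 0.17 was 0.00 with quantile normalization, with Mki67 at -0.25 ± 0.11 (adjusted p = 0.11). Of 25 G1 genes Ccnd1 was called, beside 0.525% of all genes called higher. Cdkn1a, the CDK inhibitor p21, was at 0.76 ± 0.12 (adjusted p = 0.0019), under 2-fold and at 0.54 with quantile normalization. Housekeeping groups had positive changes throughout without a call by the brightest probe. All 55 cytosolic ribosomal protein genes had a positive change (median 0.47, 50 higher at the adjusted p alone), as had all 56 oxidative phosphorylation genes (median 0.47, 45) and all 31 proteasome genes (median 0.45, 25), where 7281 of all 12578 genes had a positive change and 23.5% were higher at the adjusted p alone. These are bright probes, with a median intensity of 146000 in the ribosomal list. With quantile normalization the 3 medians were 0.06, 0.14 and 0.14, and with the slide term 0.15, 0.16 and 0.29, beside the brightness trend given earlier. What share of their shift that trend accounts for was not tested.

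The lower calls were unevenly spread over kinds of probe. Probes designed on RefSeq mRNAs numbered 15458, of which 0.893% were called lower and 0.446% higher, with a median change of 0.05. Probes designed on full-length cDNA clones with an AK accession numbered 3722, of which 6.99% were called lower and 0.269% higher, with a median of -0.22. Among probes dimmer than the median of all probes the shares called lower were 2.01% and 8.83%. With quantile normalization they were 0.453% and 2.61% over all probes, and the cDNA median was -0.08.

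Probes of one gene were compared next. For 106 lowered probes without a RefSeq mRNA accession, of 104 genes, the gene had a tested RefSeq mRNA probe, and 2 of those were called lower as well, in Ifi44 and Cntn1. The RefSeq probe had the same sign in 57 and the opposite in 49. It was also the brighter probe in 103 of the 106 pairs. As the change ran with brightness, kind of probe and brightness cannot be told apart in these pairs. The first kind was chosen here for being lower, so the reverse was counted as well. For 18 lowered RefSeq mRNA probes, of 17 genes, the gene had a tested probe of another kind, which was called lower in 2, had the same sign in 13 and the opposite in 5. Over all lists 28 genes whose brightest probe was not called had another probe that was, 4 probes higher and 24 lower, and 12 of these 28 probes were RefSeq mRNA probes. B2m, the light chain of MHC class I, gave -1.5 on its cDNA probe and 0.26 on the RefSeq one, and Gnas, the stimulatory G protein, -1.57 and -0.06. For Ifit3, an interferon-induced antiviral gene (-1.32 and -0.89), both probes were negative, and the RefSeq one missed 2-fold with adjusted p = 0.00014.

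**Figure D5:**
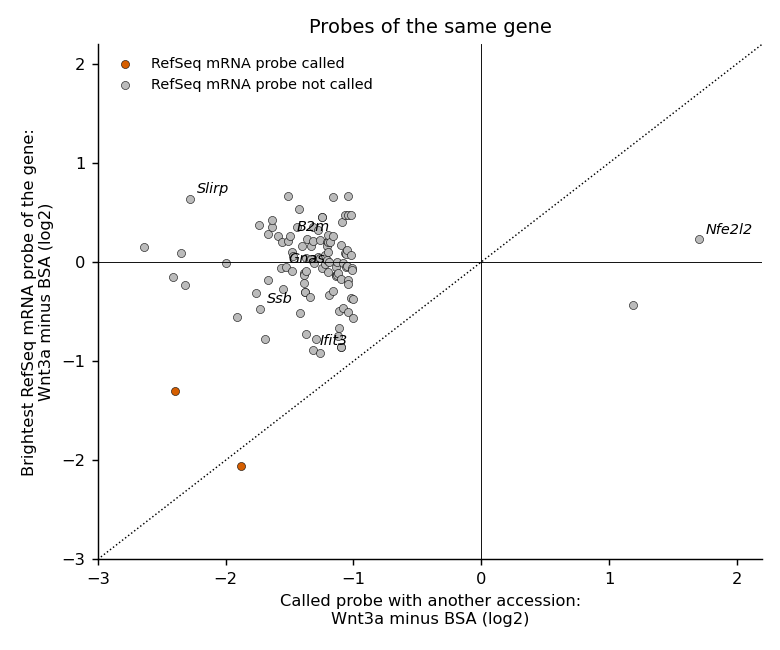
Change of called probes without a RefSeq mRNA accession (x axis, Wnt3a minus BSA, log2) against that of the brightest RefSeq mRNA probe of the same gene (y axis), with the dotted line marking equal change. Most points left of 0 lie near 0 on the y axis, and the 2 orange points, Ifi44 and Cntn1, are the genes whose RefSeq probe was called too.

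Some probes were measured in 1 of the 2 groups alone. A total of 26 were above background on all 3 Wnt3a arrays and no BSA array, and 114 the other way round, a choice that already asks for a difference. The largest bound upward was in Krtap1-5, a hair keratin-associated protein, with intensities of 20.9, 17.2 and 37.0 with BSA and 150, 190 and 153 with Wnt3a. It was higher by at least 6.44-fold (adjusted p = 5.6e-05), and called with quantile normalization and the slide term. Cd33, a sialic acid-binding lectin of myeloid cells, was higher by at least 2.2-fold (adjusted p = 0.00015), an unnamed cDNA probe by at least 2.15-fold (adjusted p = 0.00034) and a probe of Cemip, a hyaluronan-binding protein, by at least 1.97-fold (adjusted p = 0.0019), where the gene's other probes gave 0.52 and 0.55. Slc17a9, a vesicular nucleotide transporter, had a bound of 2.48-fold without passing the test (adjusted p = 0.059), since Wnt3a array 2 read 27.3 beside 110 and 80.6. Downward, after Hp and Saa3, came probes of Rbm3 (at least 4.31-fold), Samhd1 (at least 3.60-fold) and A430110M15Rik (at least 3.32-fold). Of the called probes of this paragraph after Krtap1-5, those of Cd33, Cemip, Rbm3, Samhd1 and A430110M15Rik and the unnamed one were not called with the slide term, where their fitted changes were 1.65, 1.03, -2.36, -1.57, -3.10 and 1.77. The brightest probes of Rbm3, a cold-induced RNA-binding protein, and of Samhd1, a nucleotide hydrolase that restricts viruses, gave 0.54 and 0.09.

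Wnt3a was set against Rspo2 in the same fit, because both groups have arrays on slide 2. Of 22750 probes 46 were called (0.202%). Of the 97 genes named by rule 11 were called, 7 higher and 4 lower with Wnt3a. Many of the 97 were picked for their change on the same Wnt3a arrays, which favours a difference from Rspo2. Their share is therefore not to be compared with that of all probes. Ch25h was 1.84 higher than with Rspo2 (adjusted p = 0.00026), and 1.78 within slide 2. Rhou (1.16, adjusted p = 0.0031), Fam167a (1.12, adjusted p = 0.00066), Il33 (1.11, adjusted p = 0.00038), Car6 (1.09, adjusted p = 0.0023), Ahr (1.04, adjusted p = 0.0015) and Helt (1.02, adjusted p = 0.009) were also higher, with 0.97 to 1.22 within slide 2. Lower with Wnt3a were Hp (-2.87, adjusted p = 0.026), Lcn2 (-1.55, adjusted p = 0.00047), Cntn1 (-1.70 and -1.53 on its probes, adjusted p = 0.0017 and 0.00019) and Foxred2 (-1.03, adjusted p = 0.0021). Within slide 2 these were -3.4 for Hp, -1.62 for Lcn2, -1.67 and -1.44 for Cntn1 and -0.91 for Foxred2, and with the slide term 9 named genes were called, 7 higher and 2 lower. For Cxcl5 and Ccl2 the difference between the proteins was -0.05 (adjusted p = 0.82) and -0.04 (adjusted p = 0.89), and for Oas2 it was -0.76 (adjusted p = 0.035), under 2-fold. The Hp probe was above background on no Wnt3a array, so its value there is not a measured level.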

How the data were processed

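Per the study's methods, the poly(A) fraction of total RNA was amplified from an oligo-dT primer. The labelled product was measured on Agilent 44k mouse arrays with 60-base probes. Per the file headers, Agilent Feature Extraction 9.5.3.1 gave each spot a background-subtracted, detrended intensity and a flag for signal well above background. The deposited value table holds a ratio that the authors obtained by scaling to the 75th percentile. It matched the scanner signals so scaled, within 1% or rounding, for 94.56% to 99.93% of the values of a BSA or Wnt3a array and for 70.87% to 99.88% of those of the other arrays, and was used as an alternative only. Its probes were matched through the scanner files.

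Control spots were left out, spots of a probe averaged and log2 intensity minus the array's 75th percentile taken. Of 520548 spot values 1327 were left out for outlier flags. Probes whose flag was set throughout 1 or more groups (3 arrays each) were tested with limma 3.58.1 (R 4.3.3, lmFit and eBayes) in one fit of 12 arrays, with Benjamini-Hochberg adjustment over 22750 probes. A call needed an adjusted p below 0.05 and 2-fold. A fit without fold is given as "adjusted p alone". An exact permutation test of 3 against 3 arrays cannot go below 0.1. Python 3.11.15, pandas 2.3.3, scipy 1.17.1 and matplotlib 3.10.9 were used for tables and plots. Arrays give no counts, so their number limits the precision.

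Symbols came from RefSeq by accession for 22951 probes and from the scanner files for 11278, and 6945 stayed unnamed. A gene was represented by its brightest tested probe.

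Named genes were the 15 largest rises and 15 largest falls among called, named probes above background on all 6 arrays with groups apart (without the genes tabulated by the study), up to 6 called members per list and direction, a fixed set of pathway genes, the 5 largest bounds each way and every marker. Genes and lists were chosen with earlier results of these data known. Alternatives covered background correction, scaling, detection filters, saturated spots, slide, replicate number, an intensity trend, the methods' unequal variance test and leaving out each array. The RefSeq-only filter, and all alternatives for the difference from Rspo2, were chosen after seeing the data. Slides were taken from the array identifiers. All samples had a labelled group. Some genes of the fixed set are not reported here.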

Additional observations from a re-analysis of the deposited data

How the results depend on the processing

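Of 24 alternatives, none turned the direction of any of the 81 called named genes. Named genes without a call did change sign between settings, such as Lrp6 (-0.50 to 0.22), Mki67 (-0.55 to 0.08), Col1a1 (-0.66 to 0.02) and the markers Prlr (-0.28 to 0.63), Vim (-0.16 to 0.58) and Fabp4 (-0.32 to 0.39). Of the 81, 7 were called under every alternative that tested their probe. For Hp these were 23 of the 24, as its probe was not above background on all 6 arrays. The call was lost for 67 with normexp background correction, 54 with the slide as a term and 15 with quantile normalization.

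The 573 changed probes (92 higher, 481 lower, 312 above background on all 6 arrays, 83.9% lower) became 35 with normexp (11, 24, 34 and 68.6%), 146 with the slide term (36, 110, 111 and 75.3%) and 165 with the methods' test after adjustment (37, 128, 122 and 77.6%). Before adjustment that test called 473. Without the fold requirement 7161 passed (4153, 3008, 6723 and 42.0%). Among RefSeq mRNA probes alone 210 were called (69 higher, 141 lower, 124 above background on all 6 arrays, 67.1% lower), and among probes above background on all 6 arrays 313 (49 higher, 264 lower).

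Quantile normalization gave 211 higher and 200 lower (48.7% lower, 204 above background on all 6 arrays), and median scaling 384 and 184 (32.4% lower). The 75th percentile over probes above background on all arrays, which moved the median of all probes by -0.12, gave 733 lower (91.4%) and 470 above background on all 6 arrays. A looser detection flag gave 1049 calls, 941 lower (89.7%), and no filter 826, 739 lower (89.5%). Why the settings differ was not tested.

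Leaving out 1 array at a time gave 480 to 683 changed probes, 79 to 119 higher, 361 to 583 lower, 250 to 387 above background on all 6 arrays and 75.2% to 86.3% lower, the lowest share without BSA array 1. Same-numbered BSA and Wnt3a arrays had deviations correlated at -0.209, 0.0821 and -0.159, so the numbers were not taken to pair the samples. With a replicate block 571 probes were called (88 higher, 483 lower), and 0 named genes lost their call. The 11 named genes that differed from Rspo2 became 11 with quantile normalization, 9 with the slide term and 11 with the replicate block. Dim probes are limited by signal over background, with 271 of the 481 lower calls in the dimmest of 8 groups by brightness.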

Other observations

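Several other gene groups gave few or no calls, and their values are set here beside a median of 0.07 and calls for 0.525% (higher) and 1.16% (lower) of all genes. Among 33 Atf4 and amino acid genes 1 was called higher, Fgf21, with a median of 0.24 (0.10 with quantile normalization). Among 30 aryl hydrocarbon receptor and Nrf2 genes Ahr was the 1 call and the median was 0.25 (0.08 with quantile normalization), with 14 higher and 0 lower at the adjusted p alone. Foxred2 was the 1 call among 29 endoplasmic reticulum stress genes, whose median was 0.21.

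By the brightest probe, none of 31 metalloproteinases and inhibitors (median -0.18), 34 glycolysis and hypoxia genes (0.05), 16 circadian clock genes (-0.04), 14 retinoid pathway genes (-0.08), 19 epithelial to mesenchymal transition genes (0.10), 23 AP-1 and immediate early genes (0.11) or 18 prostaglandin and lysophosphatidic acid genes (-0.04) was called. Of 20 BMP pathway genes none was called either (-0.03). Mgll was the 1 call among 33 fatty acid and triglyceride genes (-0.06), Cntn1 the 1 call among 39 guidance genes (-0.06), and Klf5 and Klf15 the calls among 31 SOX, HOX and Krüppel-like factors (-0.11). With Ppard, those same 2 were the calls among 16 adipogenic genes (-0.07).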
